A study of Mus musculus with 5 samples.

Results

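Hedgehog signalling was followed through 7 genes of the mouse fetal testis, chosen by symbol for their place in the pathway: Dhh, Ptch1, Smo, Sufu, Gli1, Gli2 and Gli3. They are 7 of the 21887 protein-coding genes in the RefSeq table used for positions, and all were found there. For each gene, every peak in the gene body or up to 20 kb outside it was collected. The peaks came from CUT&RUN, an assay in which an antibody guides a nuclease to cut out the DNA around a bound protein or a modified histone. One list each was made with an antibody against CREB, the transcription factor activated by cAMP and protein kinase A, at E13.5, at E16.5 and again at E18.5 (embryonic days), and one with an H3K4 antibody at the last of these. The labels name the H3 residue but not its methylation state, and give no strain, genotype or treatment. Cells of whole male gonads were used and the labels name no sort, so a peak cannot be given to one cell type. Each combination of antibody and stage is 1 library, so nothing below has a replicate check or a test between stages. An IgG library also belongs to the series and was not analysed here.

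Desert hedgehog, the product of Dhh, is secreted by Sertoli cells in the testis cords and acts on cells of the interstitium, where it is needed for fetal Leydig cells to form. Without the ligand, the receptor Ptch1 holds back the membrane protein Smo. When the ligand binds, Smo is released, the inhibitor Sufu lets go of the Gli proteins, and these enter the nucleus as transcription factors. Gli1 and Ptch1 are themselves classical targets of the pathway. Protein kinase A phosphorylates Gli2 and Gli3 and keeps the pathway off, and the same kinase phosphorylates CREB.

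Around these genes the 3 CREB lists held 9 peaks in all, at 4 of the 7 genes, and 3 genes (Ptch1, Smo and Gli3) had none at any stage. Of all protein-coding genes 29.1% had no peak in any list and a further 41.2% had H3K4 but no CREB. Most genes thus had no CREB peak in the window. A CREB peak at the listed start of a member was found only at Sufu, at E18.5, and one inside Gli1 was found at E16.5 and E18.5. Gli2 had 1 peak deep in the gene at E16.5. The single CREB peak found at every stage, in the window of Dhh, lay at the start of the neighbouring gene Lmbr1l. In stage order, 1, 3 and 3 members had a CREB peak in the window. Of all protein-coding genes 8.24%, 27.1% and 23.5% had one in a window made the same way. A peak in the window at all 3 stages was found for 1 member and for 8% of all protein-coding genes. H3K4 peaks were in the windows of 6 of 7 members, against 70.8% of all protein-coding genes. With 7 genes and 1 library a stage, the counts were not tested against these percentages.

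The promoters that a CREB peak covered in these windows are shown first, with the Dhh promoter for contrast, which no peak of any list touched. Each is the 250 bases before the gene start in RefSeq (GRCm38.p6, whose chromosome positions are those of mm10), read in the direction of transcription. Capitals mark the letters TGACG, the core of the cAMP response element (CRE) to which CREB binds, or the same core on the other strand, CGTCA. The Sufu promoter lies at chr19:46396646-46396895 on the plus strand, Lmbr1l at chr15:98918099-98918348, Mars1 at chr10:127311787-127312036 and Dhh at chr15:98898541-98898790, the last 3 on the minus strand.
Sufu: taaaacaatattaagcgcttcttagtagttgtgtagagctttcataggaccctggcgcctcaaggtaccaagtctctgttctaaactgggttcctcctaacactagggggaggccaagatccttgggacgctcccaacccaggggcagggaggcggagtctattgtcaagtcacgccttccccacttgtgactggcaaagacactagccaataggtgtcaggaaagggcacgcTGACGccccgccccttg
Lmbr1l: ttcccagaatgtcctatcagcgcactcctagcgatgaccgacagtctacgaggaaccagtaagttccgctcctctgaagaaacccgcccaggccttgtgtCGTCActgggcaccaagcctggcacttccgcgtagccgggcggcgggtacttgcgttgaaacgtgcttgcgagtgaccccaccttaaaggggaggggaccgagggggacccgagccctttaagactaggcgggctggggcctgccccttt
Mars1: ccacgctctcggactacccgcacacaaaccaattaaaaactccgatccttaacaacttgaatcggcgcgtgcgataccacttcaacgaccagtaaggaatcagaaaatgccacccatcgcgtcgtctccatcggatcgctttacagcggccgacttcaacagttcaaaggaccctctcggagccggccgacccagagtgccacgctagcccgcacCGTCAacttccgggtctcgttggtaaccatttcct
Dhh: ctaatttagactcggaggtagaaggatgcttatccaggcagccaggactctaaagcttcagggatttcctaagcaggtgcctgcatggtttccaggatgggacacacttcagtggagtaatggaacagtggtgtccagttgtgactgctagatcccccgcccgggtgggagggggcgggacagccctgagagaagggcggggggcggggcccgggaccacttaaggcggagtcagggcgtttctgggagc

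In Sufu the core stands 17 to 13 bases before the start and lies inside the E18.5 CREB peak, 51 bp from its midpoint. In Lmbr1l it stands 150 to 146 bases before the start, and the peak midpoints of the 3 stages, in order, lie 22, 2 and 5 bp from it. In Mars1 it stands 35 to 31 bases before the start, within the E16.5 peak and 194 bp from its midpoint. The Dhh stretch has no such core. A match is a description of the letters and does not show a binding site.

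Promoter sequences, from 250 bases before to 50 after the start, were in the RefSeq table for 6 of the 7 members, Gli1 being the exception. The full palindrome TGACGTCA, searched on both strands, was in none of the 6, and in 2.23% of the 21263 promoters of protein-coding genes in the table. The core TGACG, which is part of the palindrome, was in 2 of 6 on either strand, Sufu and Gli3, and in 23.6% of the 21263. Gli3 holds the core but had no CREB peak in its window at any stage. Among promoters that an E18.5 CREB peak overlapped, 61.9% of 2346 held the core, against 18.9% of the 18917 others. The letters GACCACCCA, to which Gli proteins bind, were in no member promoter and in 0.179% of the 21263.

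Dhh, the ligand gene, occupies chr15:98881615-98898562 (mm10). Its window held 1 CREB peak at each stage. In stage order they lay at chr15:98918150-98918299, chr15:98917930-98918559 and chr15:98918162-98918321, in rows 192, 318 and 169 of lists with 862, 3528 and 2957 rows. The deposited lists are not sorted by position and no source used here says what their order means. These peaks overlapped one another, with midpoints no more than 20 bp apart. They were 19684, 19704 and 19701 bp from the start of Dhh but 126, 146 and 143 bp from the start of Lmbr1l, which encodes a membrane receptor, and they lay inside the noncoding gene Gm41396. An H3K4 peak at chr15:98918087-98918296 overlapped all of them.

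Most H3K4 peaks in the Dhh window were not in Dhh itself. Of 7 H3K4 peaks in the window, 1 lay inside Dhh, at chr15:98894019-98894228, 4417 bp from the listed start and in row 17316 of 21211. The other 6 were nearer to other genes: 3 in Kmt2d, which encodes a histone methyltransferase, 1 in Rhebl1, 308 bp beyond the far end of Dhh, 1 in Lmbr1l and the one in Gm41396. No peak of any list was within 1000 bp of the Dhh start.

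Ptch1, the receptor gene, at chr13:63508328-63573460, had no peak in any of the 4 lists, in the gene or within 20 kb of it. The nearest CREB peak to its listed start was 587648, 134583 and 587667 bp away in stage order, and the nearest H3K4 peak was 61855 bp away. Of 7610 protein-coding genes between 20 and 100 kb long, 18.3% likewise had no peak in any list. Its promoter has 47 CpG dinucleotides in 300 bases, against a median of 13, and 76.3% G and C, against 56.3%. Among the 1008 protein-coding genes with 40 or more CpG in the promoter, 95.8% had an H3K4 peak in the window, a comparison chosen after the values were seen. Depth and the caller's settings are unknown, so an empty window does not show that CREB or the histone mark was absent.

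Smo, the transducer that Ptch1 restrains, at chr6:29735497-29761366, had no CREB peak in its window. The nearest midpoints to its start were 387513, 299669 and 267883 bp away in stage order. An H3K4 peak at chr6:29736678-29736887 lay inside Smo, 1285 bp from the start, in row 1008 of 21211. This was the earliest row of any H3K4 peak inside a member. The other 3 H3K4 peaks in its window were nearest to Tspan33 (1 peak) and Ahcyl2 (2 peaks).

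Sufu, which encodes the cytoplasmic inhibitor of the Gli proteins, was the only member with a CREB peak at its listed start. The peak, at chr19:46396751-46396910, had its midpoint 66 bp before the start and stood in row 1507 of 2957 at E18.5. Neither other CREB list had a peak near it: the nearest midpoint was 92219 bp away at E13.5 and 92197 bp at E16.5. H3K4 peaks stood inside Sufu at chr19:46396970-46397179 and chr19:46397699-46397908, 178 and 907 bp from the start, and neither touched the CREB peak. On the other side of it an H3K4 peak lay inside Actr1a, which encodes a dynactin subunit, 355 bp from that gene's start. A second E18.5 CREB peak in the window, at chr19:46499816-46499975, was 11091 bp beyond Sufu and 1753 bp outside Trim8, a ubiquitin ligase gene, with the nearest H3K4 midpoint 3691 bp away. Of all protein-coding genes 2.44% had the same pattern as Sufu, with CREB in the window at E18.5 alone among the stages and with H3K4.

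Gli1, the transcription factor gene that serves as a readout of the pathway, at chr10:127329882-127341579, had CREB inside the gene at the later stages, E16.5 and E18.5. The peaks, at chr10:127340002-127340631 and chr10:127340144-127340303, overlapped and had midpoints 93 bp apart. They stood in rows 674 of 3528 and 1716 of 2957, 1263 and 1356 bp from the upper gene end. The nearest E13.5 midpoint to the E18.5 peak was 218948 bp away. H3K4 peaks lay on the same side of the gene, at chr10:127340337-127340546 and chr10:127341249-127341458, and the first overlapped the E16.5 CREB peak but not the E18.5 one. Because no start was listed for Gli1, both of its ends were used in place of one, and only the wide E16.5 peak came within 1000 bp of an end. The remaining CREB peak in the window, at chr10:127311699-127312328 at E16.5, was 227 bp outside Mars1, the methionyl-tRNA synthetase gene whose promoter is shown above.

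**Figure D1:**
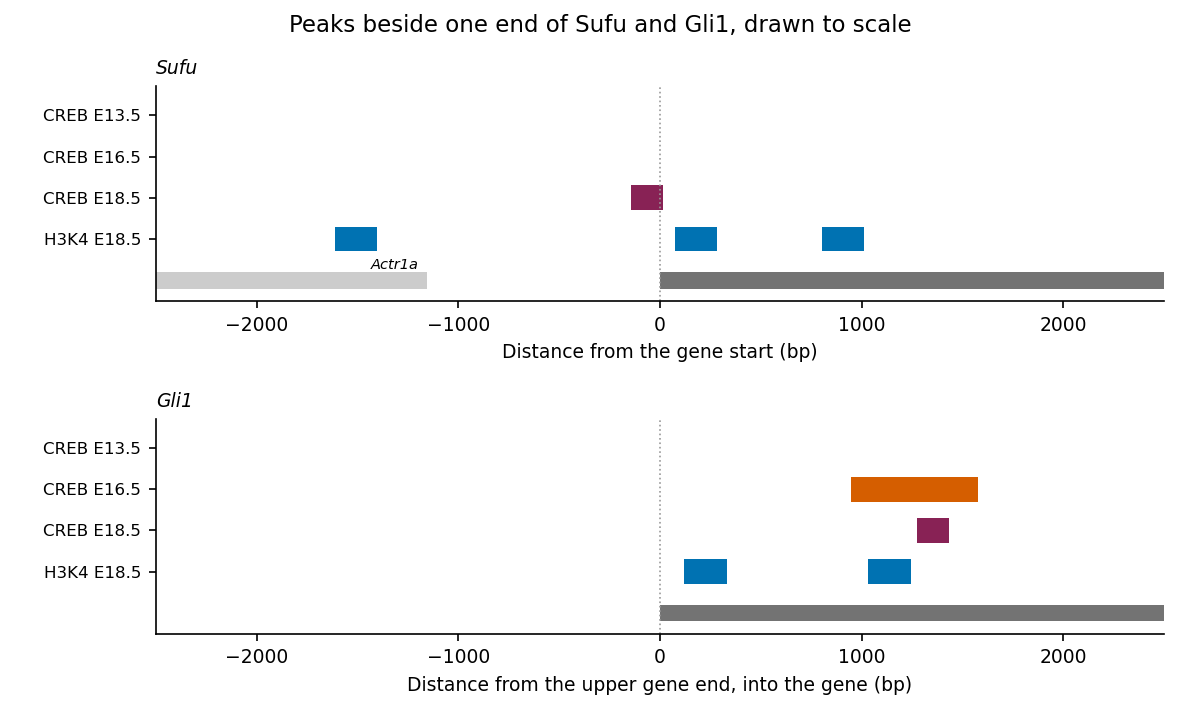
Peaks within 2500 bp of the Sufu start (upper panel) and of the upper end of Gli1 (lower panel), drawn as bars to scale by distance in bp, with 1 row per list; dark grey is the named gene and light grey Actr1a. The E18.5 CREB bar sits across the Sufu start between H3K4 bars, and the E16.5 and E18.5 CREB bars overlap inside Gli1, 1263 and 1356 bp from its end.

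Gli2, the main activator of the Gli family, at chr1:118834061-119054405, had 1 CREB peak, at chr1:118982360-118982989 at E16.5, in row 2595 of 3528. It lay within the gene, 70945 bp from the start, and the nearest CREB midpoints of the other lists were 6577892 bp (E13.5) and 6577955 bp (E18.5) away. An H3K4 peak stood next to it, with midpoints 837 bp apart, and a second H3K4 peak lay 1400 bp from the Gli2 start. Of the 2429 protein-coding genes longer than 100 kb, 20.5% had an E16.5 CREB peak in the window.

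Gli3, which mostly acts as a repressor when the pathway is off, at chr13:15463723-15730026, had no CREB peak in its window. The nearest midpoints were 550514 bp (E18.5), 550579 bp (E16.5) and 1400171 bp (E13.5) from its start. H3K4 peaks lay at the start itself, with midpoints 4 and 917 bp from it. The first of these also lay inside the noncoding gene Gm6556, which overlaps the beginning of Gli3.

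**Figure D2:**
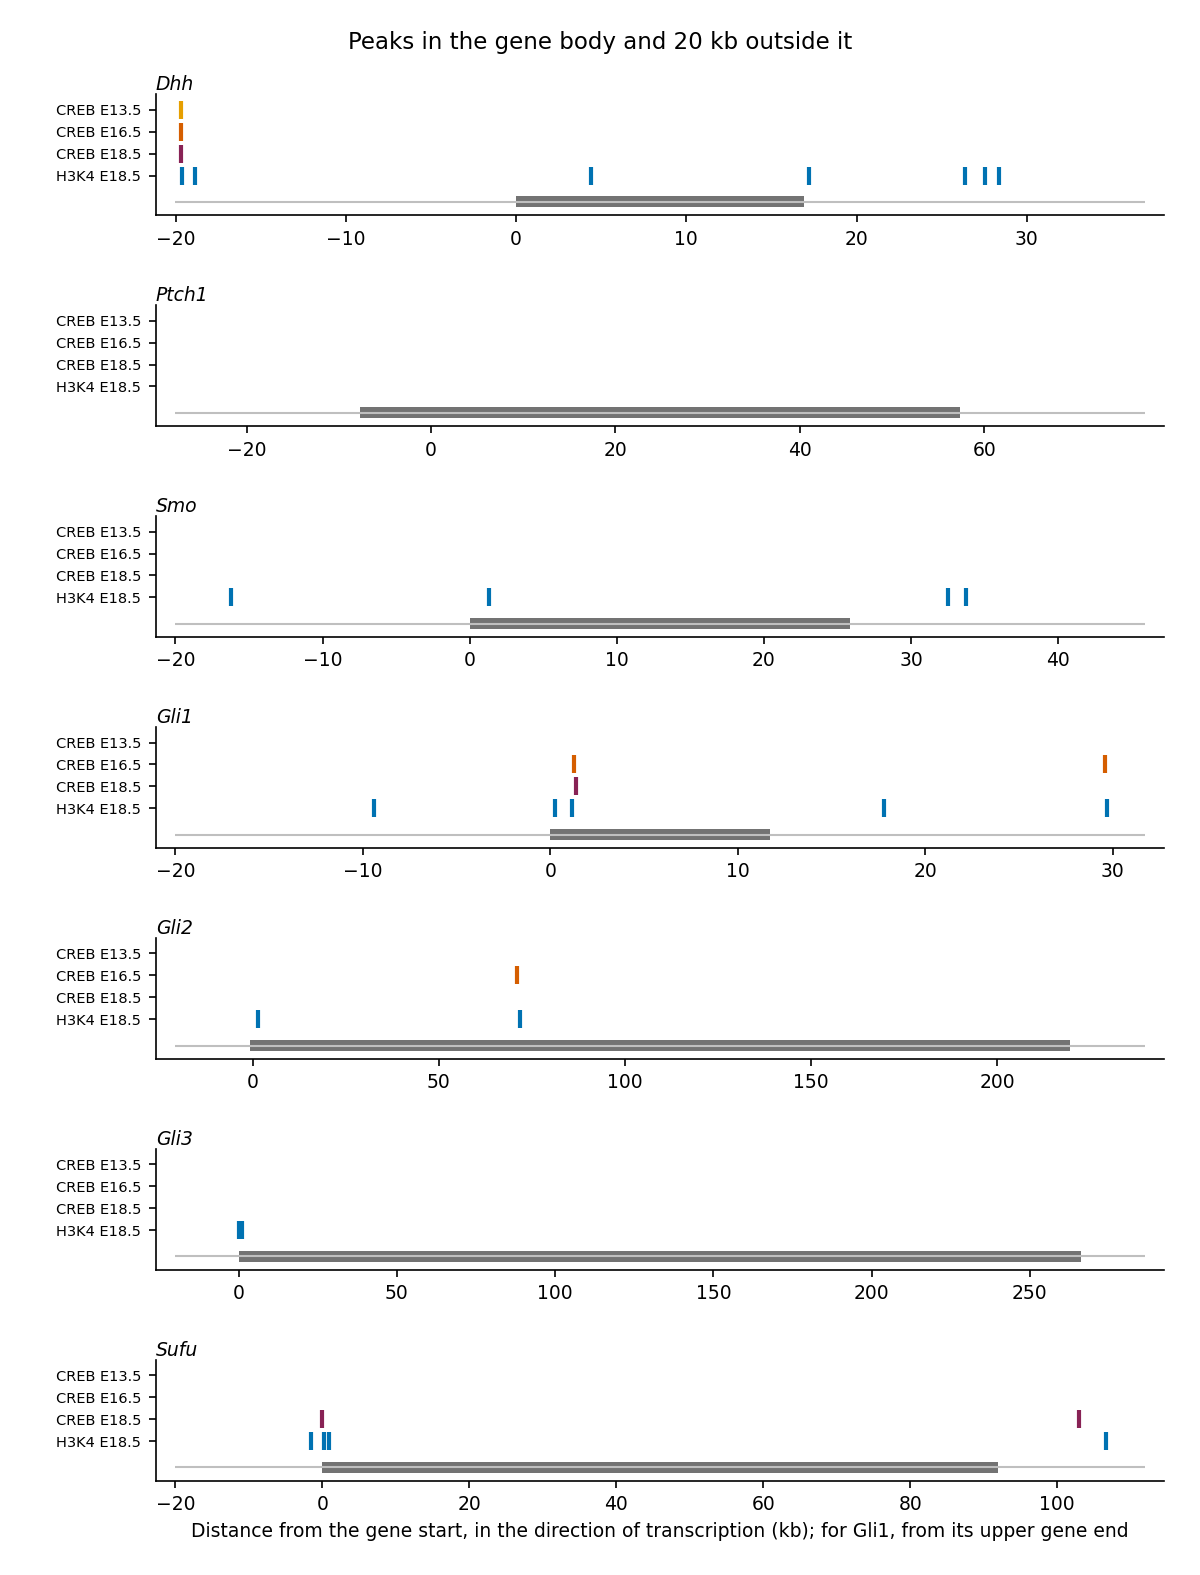
Peak midpoints (ticks) in the window of each of the 7 genes, by distance in kb from the gene start in the direction of transcription (for Gli1, from its upper end), with 1 row per list; the dark bar is the gene and the thin line the 20 kb on either side. Only Sufu and Gli1 have CREB ticks close to the zero point, the Dhh ticks of 3 stages stand 19684 to 19704 bp from its start, and Ptch1 is empty.

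At the gene start, taken as 1000 bp on either side, CREB was found, in stage order, for 0, 1 and 1 of the 7 members, against 4.05%, 15.2% and 13.1% of all protein-coding genes. The E16.5 member was Gli1, through its gene end, and the E18.5 member Sufu. H3K4 was at the start of 3 members, Gli1, Gli3 and Sufu, against 55.7%. No member had CREB at the start at 2 or more stages, so no genes of like pattern were sought. Of the 24 H3K4 peaks in the windows 10 lay inside members. Of the 4 CREB peaks in the windows at E18.5, 3 had an H3K4 midpoint within 1000 bp (75.0%, 95% Wilson interval 30.1 to 95.4, counting error only), beside 88.3% (87.1 to 89.4) of the 2947 E18.5 peaks on assembled chromosomes. The exception was the one next to Trim8.

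Other genes of the pathway numbered 63 in 5 classes. A start was listed for 43, and both gene ends were used for the rest. Of the 63, 13 (20.6%) had CREB at the start at 1 stage or more, against 17% of all protein-coding genes. The classes that act between Smo and Gli hold 33 of the 63 genes and 12 of the 13 with CREB. These classes, Smo effectors with the cilium and Gli kinases with degradation, were separate when planned and were joined only for this count. H3K4 was at the start of 17 of 17 and 14 of 16 genes in them. In stage order, 3, 12 and 9 of the 63 had a peak there (4.76%, 19% and 14.3%), which is near the 4.05%, 15.2% and 13.1% of all protein-coding genes. H3K4 was at the start of 49 (77.8%, against 55.7%). By class, 8 of 16 genes for kinases and degradation of Gli had CREB at 1 stage or more, and so did 4 of 17 genes for Smo effectors and the cilium. The count was 0 of 8 for receptors, co-receptors and decoys, 1 of 13 for known Gli targets and 0 of 9 for ligand processing and release. The share of all protein-coding genes to set beside each of these class counts is the same 17%, but that share differs with the promoter. At E16.5, CREB was at the start of 1.82% of genes with under 10 CpG in the promoter and 29.5% with 20 to 39. The values at E18.5 were 1.48% and 26%. This split by CpG was chosen after the values were seen, and the classes were not matched for it. The classes are small, and the differences between them were not tested.

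Ift172, Gsk3a and Ift122 had CREB at the start at all 3 stages. Ift172 encodes a subunit of the transport complex that builds the cilium, where Smo acts, and its peaks stood in rows 74, 121 and 49, with midpoints 111, 99 and 77 bp from the start. Gsk3a encodes a kinase that acts on Gli proteins, and its peaks were 523, 474 and 534 bp from the start. The peaks at Ift122, another cilium transport gene, were 91, 67 and 40 bp from a gene end and 70, 46 and 19 bp from an end of Mbd4, a DNA repair gene, so they lay at both genes.

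At the later stages alone CREB was found at the starts of Arrb2, Gsk3b, Cul3, Prkaca and Arl13b. For Arrb2 no start was listed, so its peaks were at a gene end. Prkaca encodes the catalytic subunit of protein kinase A, and its peaks, at chr8:83972539-83973168 and chr8:83972759-83972918, had midpoints 125 and 140 bp from the start. Gsk3b, the second Gsk3 kinase gene, had peaks 36 and 43 bp from the start in rows 452 and 392, and no H3K4 peak within 1000 bp of it. Cul3, a scaffold of the ligase that degrades Gli proteins, stood in rows 2368 and 573. Arl13b, a GTPase gene of the cilium, had peaks 18 and 41 bp from its start. A peak at E16.5 alone was found at Skp1, Prkar1a, Bcl2 and Spop, and one at E18.5 alone at Csnk1a1, a casein kinase gene. No start was listed for Csnk1a1. Its peak was 935 bp from a gene end, and no H3K4 peak was within 1000 bp of either end. Prkar1a encodes a regulatory subunit of protein kinase A and Bcl2 a survival protein. Spop, which encodes the adaptor that brings Gli proteins to Cul3, stands outside the rule that names 12 of these 13 genes and was added after its values were seen.

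**Figure D3:**
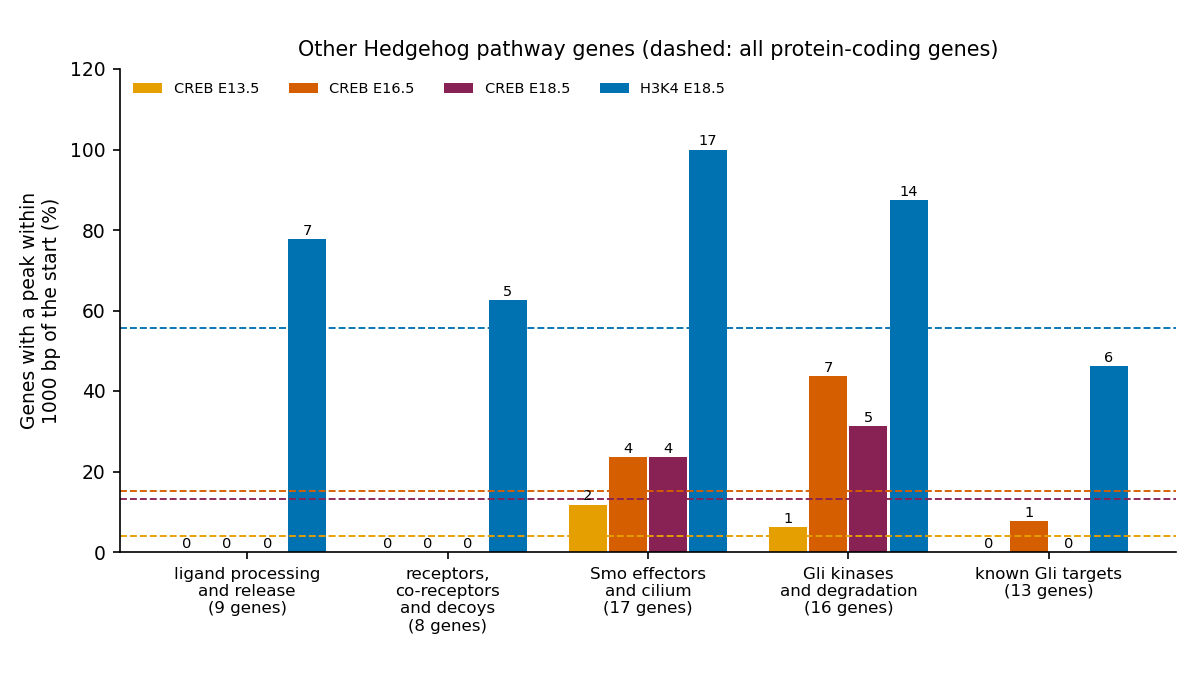
Percentage of the other pathway genes with a peak within 1000 bp of the gene start, by class and list, with the number of genes above each bar and dashed lines at the values of all protein-coding genes. Kinases and degradation stand highest for CREB at the later stages, with 7 and then 5 of 16 genes, and the ligand and receptor classes have none.

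The tissue label was checked on 41 marker genes at their starts. A start was listed for 24 of them, and both gene ends were used for the rest. The listed starts cover 1 of 5 Sertoli, 4 of 7 fetal Leydig and 3 of 4 interstitial markers. H3K4 was at the start of 17 of the 41 (41.5%), below the 55.7% of all protein-coding genes, so the counts by cell type are a description only. H3K4 was present at 4 of 5 Sertoli markers (not Dmrt1), 4 of 7 fetal Leydig markers, 2 of 2 peritubular, 2 of 3 endothelial, 1 of 4 germ cell and 1 of 3 immune markers. It was at none of 5 markers of other organs, 3 of mesonephros and kidney or 2 of adrenal, and at 3 of 3 ovary markers. None of 4 interstitial markers (Nr2f2, Pdgfra, Tcf21 and Wnt5a) had an H3K4 peak at the start. The Dhh signal acts on cells of the interstitium, which also holds the fetal Leydig cells, with H3K4 at 4 of 7 markers. None of the 41 had CREB there, where 4.05%, 15.2% and 13.1% of all protein-coding genes had it in stage order. Whether the makeup of the cells bears on the empty Ptch1 window was not tested.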

How the data were processed

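Each CUT&RUN library came from 100000 gonadal cells of male mouse fetuses, filtered at 70 µm, per the labels. The authors deposited 4 peak lists; each of the 3 columns is a coordinate (chromosome, start or end), with no score or read count. Per the submitters' processing notes, Trim Galore 0.6.10, Bowtie2 2.5.2, MACS2 and mm10 were used; the MACS2 version, its settings and any IgG control are not stated there. Nearly all peaks of a list share 1 width (150, 630 and 160 bp for CREB in stage order, 210 bp for H3K4), so the E16.5 peaks overlap features more readily.

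Gene bodies came from RefSeq (GRCm38.p6), and gene starts from its promoter table, which lists one for 17492 of 21887 protein-coding genes; for the others both gene ends were used. Overlap meant at least 1 bp, distances run from peak midpoints, and positions are 1-based. Nearest genes are of any type. With 1 library per group no test was made; counts stand beside the percentage of all protein-coding genes, and no depth is known. Members, lists and windows were chosen with earlier results of these data known. Named were all members, the nearest gene of each peak, and up to 12 other pathway genes ordered by number of stages and then by list position. Some genes of these lists are not reported here and were left out of the counts. Alternatives were other windows, a common width of 150 bp, midpoints, the first 862 peaks and stricter overlap. Python 3.11.15, numpy 2.4.6, pandas 2.3.3, scipy 1.17.1 and matplotlib 3.10.9 were used. Counting was run on simulated lists with a peak planted at the centre of 200 gene-start windows among 21887 genes. All 200 were recovered, which checks the overlap count only, not false hits or the listed starts and strands.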

Additional observations from a re-analysis of the deposited data

How the results depend on the processing

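Of 93 values recomputed under the alternatives for 25 results, 65 stayed within 1.5 times the value reported. In the gene body alone, or with 5 kb outside it, the members had 0 CREB peaks at E13.5, so 0 members had one there or at all 3 stages, 2 CREB peaks at each later stage, and 10 or 12 H3K4 peaks. Counting only peaks nearest to the member left 0 members at E13.5. With the first 862 peaks of each CREB list, 2 peaks were left at E16.5 but 1 at E18.5, where 1 member had a peak in its window and 0 at the start; Sufu and Gli1 at E18.5 were lost because they stand later in the list. With every peak at 150 bp, or within 500 bp of the start, 0 members had CREB at the start at E16.5. Within 2500 bp of the start, 2 members had CREB at E18.5 and 5 had H3K4. The share of all protein-coding genes was computed only for 20 kb outside the gene and for 1000 bp around the start, with whole lists and deposited widths. Gene counts under any other peak setting given here have no such share beside them, and the percentages given earlier are not their comparators. Under 50% reciprocal overlap 0 members shared a peak at all 3 stages, since the widths differ. Direct overlap with H3K4, by at least 1 bp, was found for 1 of the 4 CREB peaks at E18.5 (25.0%). Under the same rule 975 of the 2947 E18.5 peaks on assembled chromosomes (33.1%) overlapped H3K4. With 4 peaks the difference was not tested. For the other 63 pathway genes the CREB counts were 7, 22 and 15 in the gene body or 20 kb outside it. In windows made the same way 8.24%, 27.1% and 23.5% of all protein-coding genes had a peak. With the first 862 peaks the count at the start was 3 at E16.5. The core TGACG was in 2 member promoters and the full palindrome in 0. No paired analysis was possible because each group holds 1 library. Depth is unknown, so a missing peak is not shown to be absent.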
